A study of Mus musculus with 18 samples.

Results

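Cyclins and cyclin-dependent kinases (CDKs) were followed as 10 genes chosen by name, out of 22852 gene symbols in the count files. The 10 members were the G1 genes Ccnd1, Ccnd2, Ccnd3 and Cdk6, the genes of entry into S phase Ccne1 and Ccne2, and the S and G2/M genes Ccna2, Ccnb1, Ccnb2 and Cdk1. All 10 passed the filter on low counts, which left 11305 genes in the tests.

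The samples were bulk RNA-Seq libraries of bone marrow-derived macrophages (BMDMs), macrophages grown from the marrow of female C57BL/6 mice in medium conditioned by L929 cells, which is a source of macrophage colony-stimulating factor. There were 18 samples, 3 biological replicates in each of 6 groups. Unstimulated BMDMs received no lipopolysaccharide (LPS) and no carboplatin. LPS-primed BMDMs were kept for 24 h with LPS at 100 ng/ml, and LPS-tolerant BMDMs had this priming followed by LPS at 10 ng/ml for 3 h. LPS-stimulated BMDMs received the dose of 10 ng/ml alone, for 3 h as the schematic of the experiment has it. In a further group each of primed and tolerant BMDMs, 25 µM carboplatin, a platinum drug that cross-links DNA, was added 1 h before priming. The paper's methods name a vehicle control in place of carboplatin, which the sample labels do not mention. The dose of 10 ng/ml in tolerant BMDMs came with fresh medium, and no group had fresh medium alone, so that the dose, the new medium and the added 3 h cannot be told apart. Whether the medium of LPS-stimulated BMDMs was changed at the dose was not given in the sources used here. What was pooled into a replicate was not given in the sources used here, and the p-values measure the spread between these samples.

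Cyclins are regulatory subunits that switch on CDKs at set points of the cell cycle. The D cyclins, made from Ccnd1, Ccnd2 and Ccnd3, pair with CDK4 and CDK6 in G1 and phosphorylate the retinoblastoma protein, and they are the cyclins that respond to growth factors. The E cyclins pair with CDK2 at entry into S phase, cyclin A2 acts in S phase and G2, and the B cyclins with CDK1 drive mitosis. In macrophages, colony-stimulating factor keeps cells in the cycle and LPS is known to stop their division.

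Counts on genes ranged from 6869667 to 14708099 per sample, and replicates of a group correlated at 0.965 to 0.986 (Pearson's r of log2(CPM + 1) across tested genes). Values below are CPM, read counts scaled to the sample's TMM library size. Levels set between genes are TPM, which also divides by exon length, apart from the difference between G1 and S and G2/M members, which uses CPM. A change is the log2FC of edgeR, with its SE. A gene was called higher or lower at an adjusted p under 0.05 over the 11305 genes, by the quasi-likelihood F test of edgeR after Benjamini and Hochberg, as everywhere here unless another tool is named. The 6 macrophage markers (Adgre1, Csf1r, Cd68, Itgam, Mertk and Fcgr1) were present in every group and summed to between 6750 and 13816 CPM. The 4 markers of T and NK cells and the 3 of mast cells and basophils had no count in any of the 18 samples. With no TMM factor, so that samples were scaled by their totals, the fit moved the median log2FC of all genes to -0.26 for priming, -0.43 for LPS stimulation, -0.11 for the second dose and 0.30 for the difference between the doses.

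The promoters of the 4 S and G2/M members are shown first, because these genes moved together and because mitotic genes are known for a CHR element and CCAAT boxes before their start sites. The windows hold the 250 bases before the start of the Ensembl canonical transcript on GRCm39, in the direction of the gene, at chr9:70328875-70329124 for Ccnb2, chr10:69188769-69189018 for Cdk1, chr13:100923117-100923366 for Ccnb1 and chr3:36626300-36626549 for Ccna2, all on the minus strand. Capitals mark the CHR letters TTTGAA, the CCAAT box in either direction (so that it can also be read as ATTGG), and the E2F letters TTTCGCGC, which do not overlap one another here.
Ccnb2: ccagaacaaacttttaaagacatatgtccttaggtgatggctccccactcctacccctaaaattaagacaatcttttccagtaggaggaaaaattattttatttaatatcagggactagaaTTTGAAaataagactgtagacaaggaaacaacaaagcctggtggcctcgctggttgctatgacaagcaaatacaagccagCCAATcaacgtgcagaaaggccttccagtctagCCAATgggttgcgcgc
Cdk1: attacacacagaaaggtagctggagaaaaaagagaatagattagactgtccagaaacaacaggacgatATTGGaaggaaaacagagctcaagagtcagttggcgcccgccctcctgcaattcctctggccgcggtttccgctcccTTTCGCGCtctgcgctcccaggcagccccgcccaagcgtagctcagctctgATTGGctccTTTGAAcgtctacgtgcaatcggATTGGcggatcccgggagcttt
Ccnb1: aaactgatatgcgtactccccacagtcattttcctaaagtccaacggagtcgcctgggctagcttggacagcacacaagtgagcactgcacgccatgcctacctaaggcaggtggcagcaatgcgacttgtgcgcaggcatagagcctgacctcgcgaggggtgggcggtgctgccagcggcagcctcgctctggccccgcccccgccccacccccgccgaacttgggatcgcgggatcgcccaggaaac
Ccna2: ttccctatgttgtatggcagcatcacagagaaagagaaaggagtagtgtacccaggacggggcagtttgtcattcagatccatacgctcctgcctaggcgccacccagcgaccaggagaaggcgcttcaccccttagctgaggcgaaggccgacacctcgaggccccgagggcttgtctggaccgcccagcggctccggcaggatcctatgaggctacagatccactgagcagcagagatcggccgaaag

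In the window of Ccnb2 the CHR letters began at -129 and CCAAT boxes at -49 and -16 from the start site. In that of Cdk1 they began at -45, with CCAAT boxes at -182, -54 and -22 and the E2F letters at -105. Counted to 50 bases after the start, Ccnb2 and Cdk1 each held 2 CHR matches and 3 CCAAT boxes, Ccnb1 held a CCAAT box at 24, and Ccna2 held none of these letters. Both strands were searched, around the start of the Ensembl canonical transcript alone. Other start sites and other spellings of the CHR, CCAAT and E2F letters were not searched. A window without a match thus does not show that the gene lacks the element. Among 21757 promoters of protein-coding genes, windows of 300 bases held the CHR letters in 17.1%, CCAAT in 39.9% and 1 of the E2F spellings TTTCCCGC, TTTGGCGC, TTTCGCGC and TTTGCCGC in 2.82%. Among the other members, Ccnd2 held the CHR letters at -159 and Ccnd3 held CCAAT at -80 and TTTGGCGC at -226. Ccnd1, Cdk6, Ccne1 and Ccne2 held none of them, and a motif of NF-κB, found in 8.97% of promoters, was in none of the 10 windows.

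The first question was how the S and G2/M members differed after 24 h of LPS. In unstimulated BMDMs they were the most abundant members, with a mean of 308 TPM for Ccnb2, 125 for Ccna2, 96.4 for Ccnb1 and 81.5 for Cdk1, against 25.6 for Ccnd1, the highest of the G1 members. In LPS-primed BMDMs all 4 were lower, by 7.07-fold for Cdk1 to 22.0-fold for Ccnb2. Fewer cells in the cycle and less of each RNA per cell cannot be told apart in bulk RNA.

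Ccnb2, which encodes a mitotic B cyclin, had 131, 143 and 109 CPM in the unstimulated samples and 4.55, 7.10 and 5.74 CPM in the primed samples. The groups lay far apart, and the log2FC was -4.46 ± 0.39 (SE, n = 3 per group), with an adjusted p of 2.6e-07 by edgeR. Ccnb1, the other mitotic B cyclin, went from 77.0, 96.0 and 58.7 CPM to 4.89, 7.10 and 8.06 CPM, a log2FC of -3.53 ± 0.38. Ccna2, cyclin A2, had 99.8, 124 and 63.5 CPM before and 3.98, 16.4 and 6.25 CPM after priming, a log2FC of -3.44 ± 0.60 with the widest error of the 4, and of -4.21 without primed replicate 2. Cdk1, the kinase of mitosis, went from 108, 105 and 54.6 CPM to 10.0, 16.0 and 11.9 CPM, a log2FC of -2.82 ± 0.35. None of the 4 genes had overlapping sample ranges, and each was called in every fit that left out 1 sample.

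**Figure D1:**
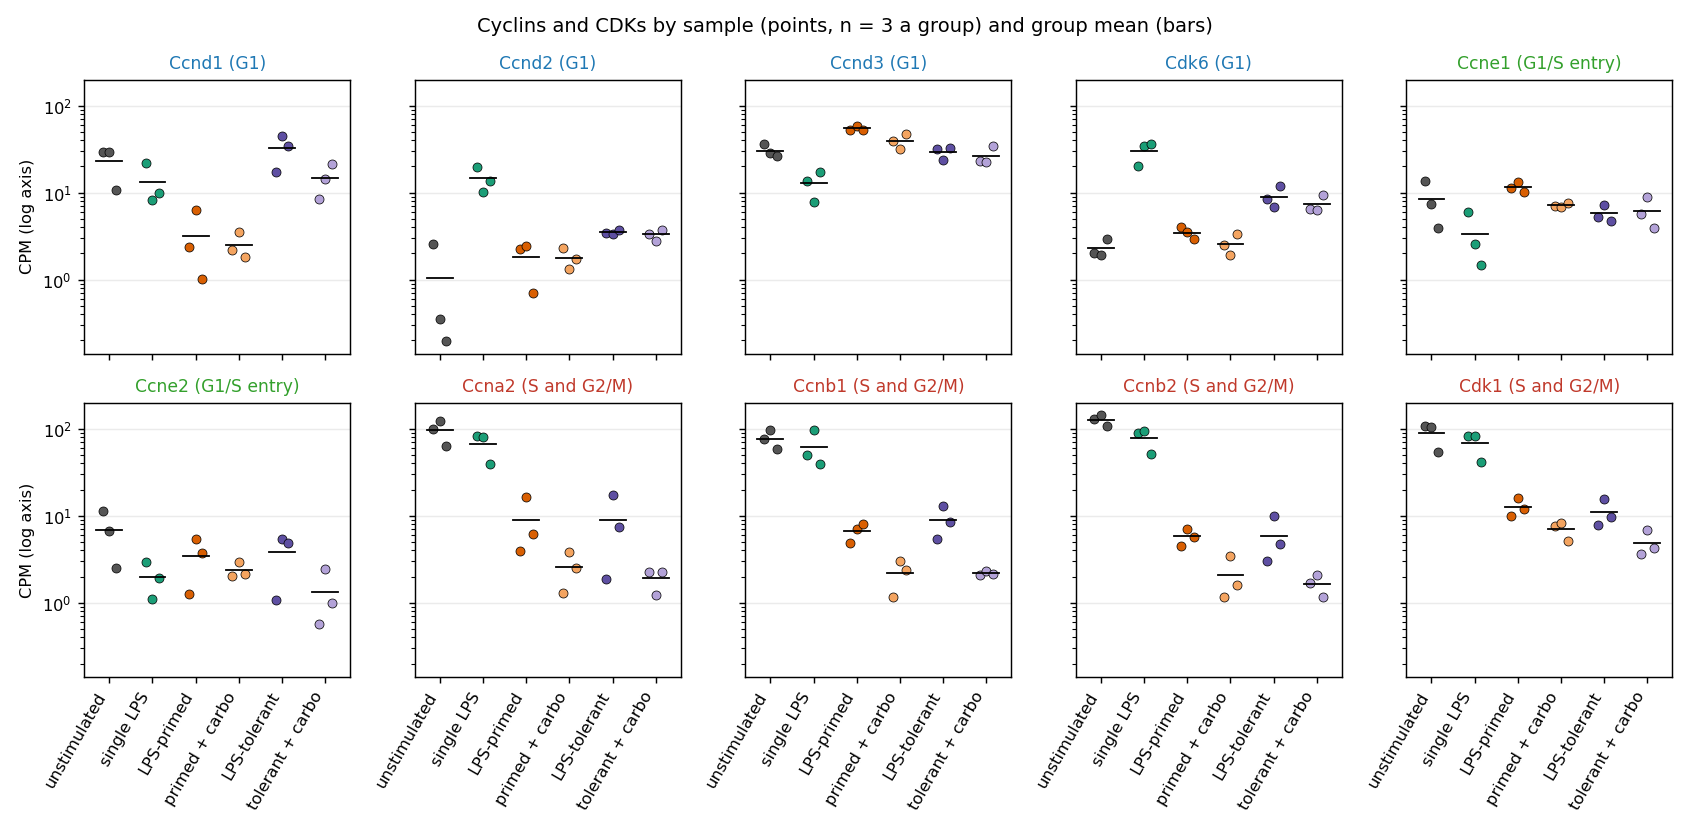
CPM of the 10 members in each of the 18 samples, on a log axis. Points are samples, n = 3 in each of 6 groups, and bars are group means. The S and G2/M members stay high in the unstimulated and LPS-stimulated (single LPS) groups and low in the other 4, while the G1 members follow other orders.

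Of the 10 members, 5 were called lower and 1 higher with priming, where 13.1% of all tested genes were called lower and 12.1% higher. The median log2FC was -3.48 over the S and G2/M members, 0.70 over the G1 members and -0.02 over all tested genes. Markers of other cells moved in the same direction. Of the B cell markers, Ighm had 267 to 1697 counts in unstimulated samples, 58 to 305 in LPS-stimulated samples and at most 10 elsewhere, while Cd79a and Ms4a1 had at most 2 counts in any sample. The 6 granulocyte and progenitor markers summed to 1.76 to 4.72 CPM in unstimulated samples and 0.114 to 0.403 CPM in primed samples, mostly Kit, with 13 to 42 counts against at most 1. The part of these cells in the result was not tested.

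After 3 h of LPS at 10 ng/ml, none of the S and G2/M members was called by edgeR or DESeq2, with 1 at an unadjusted p under 0.05 by edgeR. This was Ccnb2, which had 88.6, 95.4 and 51.4 CPM in the LPS-stimulated samples, all below the unstimulated samples, with a log2FC of -0.70 ± 0.33 and an adjusted p of 0.0869, which fell to 0.00447 with the replicate number as a block and to 0.0145 with no TMM factor (log2FC -1.04). The other 3 had log2FC values from -0.50 for Ccna2 to -0.30 for Ccnb1, and their samples overlapped with those of unstimulated BMDMs. The 95% interval of the log2FC of Ccnb1 was -1.02 to 0.42, so that a fall of the size seen with priming lay outside it.

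LPS-tolerant BMDMs carried the low levels of the primed state. Compared with LPS-stimulated BMDMs, which received the same dose of 10 ng/ml, the log2FC was -3.71 ± 0.38 for Ccnb2, -2.90 ± 0.58 for Ccna2, -2.80 ± 0.36 for Ccnb1 and -2.63 ± 0.35 for Cdk1. Without tolerant replicate 2 it was -4.32 for Ccnb2 and -3.81 for Ccna2. Compared with LPS-primed BMDMs, none of the 4 was called by edgeR or DESeq2, with 0 at an unadjusted p under 0.05, and their log2FC ranged from -0.18 for Cdk1 to 0.42 for Ccnb1. Tolerant replicate 2 was the highest of its group for each of these genes, with 17.2 CPM of Ccna2 where the other tolerant samples had 1.90 and 7.52 CPM. Without that sample the log2FC of Ccna2 between tolerant and primed BMDMs was -0.87, against 0.04 with it, and it was called in neither.

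The D cyclins and Cdk6 did not move as a class. Ccnd2 and Cdk6 rose after a first dose of 10 ng/ml, Ccnd1 fell with priming and rose with the second dose, and Ccnd3 rose with priming and fell after either dose of 10 ng/ml. In each of the 4 LPS comparisons the log2FC of the G1 members had both signs.

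Ccnd1, cyclin D1, had 29.1, 29.5 and 10.8 CPM in unstimulated BMDMs and 2.39, 6.24 and 1.01 CPM in primed BMDMs. Its samples did not overlap, and its log2FC of -2.87 ± 0.59 had an adjusted p of 0.00157 by edgeR. In tolerant BMDMs it stood at 17.5, 45.0 and 34.6 CPM, all above the primed samples and in the range of unstimulated BMDMs or higher. Against the primed state this was a rise of 10.3-fold, with a log2FC of 3.36 ± 0.60 and an adjusted p of 0.00269 by edgeR, called in every fit that left out 1 sample. Without primed replicate 2, the highest primed sample, the log2FC was 4.27 for this rise and -3.77 for the fall with priming. LPS-stimulated samples had 21.7, 8.33 and 9.96 CPM, which overlapped with unstimulated BMDMs, with a log2FC of -0.81 ± 0.53 and an adjusted p of 0.212. Between tolerant and LPS-stimulated BMDMs the log2FC of Ccnd1 was 1.30 ± 0.53, with an adjusted p of 0.0684 that became 0.0377 with the replicate block and 0.0474 in the fit of the compared groups. LTO1, which lies on the other strand and shares exonic bases with Ccnd1, was not called in priming (log2FC 0.36) or with the second dose (0.37).

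Ccnd2, cyclin D2, was the scarcest member in unstimulated BMDMs at 0.564 TPM, with 2.57, 0.352 and 0.195 CPM, from 25, 4 and 2 counts. LPS-stimulated samples had 19.9, 10.2 and 13.7 CPM, each far above every unstimulated sample. The log2FC was 3.82 ± 0.61, with an adjusted p of 6.8e-05 by edgeR, and it was 5.66 without unstimulated replicate 1, the sample with 25 counts. Primed samples had 2.27, 2.45 and 0.705 CPM and were not called against unstimulated BMDMs, except without that same replicate, when the log2FC was 2.64. Tolerant samples had 3.40, 3.34 and 3.76 CPM, above each primed sample but with a log2FC of 0.96 ± 0.59 and an adjusted p of 0.380. They lay below LPS-stimulated BMDMs, by 2.05 ± 0.55 on the log2 scale.

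Cdk6, the kinase partner of the D cyclins, followed Ccnd2. It had 2.05, 1.94 and 2.93 CPM in unstimulated BMDMs and 20.5, 34.1 and 36.6 CPM in LPS-stimulated BMDMs, a rise of 13.2-fold. The log2FC of 3.72 ± 0.32 had an adjusted p of 7.7e-08 by edgeR. Primed samples had 3.98, 3.55 and 2.92 CPM, and tolerant samples had 8.43, 6.77 and 11.9 CPM. Cdk6 was called higher in tolerant than in primed BMDMs, by 1.38 ± 0.31 on the log2 scale. This call was lost without primed replicate 3 or without tolerant replicate 3, at log2FC values of 1.26 and 1.12. Tolerant BMDMs were lower than LPS-stimulated BMDMs by 1.75 ± 0.29.

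Ccnd3, cyclin D3, was the most abundant D cyclin in the primed state, at 25.7 TPM against 2.91 for Ccnd1. It had 36.4, 28.9 and 26.1 CPM in unstimulated BMDMs and 53.2, 58.1 and 52.9 CPM in primed BMDMs. The difference was larger than the spread, with a log2FC of 0.85 ± 0.25 and an adjusted p of 0.0185 by edgeR. With library size alone it was 0.61 and not called, and the call was also lost without unstimulated replicate 2 or 3 or primed replicate 2, at 0.77 to 0.83. LPS-stimulated samples had 13.5, 7.80 and 17.3 CPM, the lowest of the 6 groups, with a log2FC of -1.25 ± 0.26 against unstimulated BMDMs. Tolerant samples had 31.7, 24 and 32.7 CPM, below every primed sample. This fall of 0.89 ± 0.25 on the log2 scale had an adjusted p of 0.0427 by edgeR and was not called in any of the 6 fits that left out 1 sample. Bysl, on the other strand over exonic bases of Ccnd3, went the other way after LPS stimulation, with a log2FC of 1.41.

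**Figure D2:**
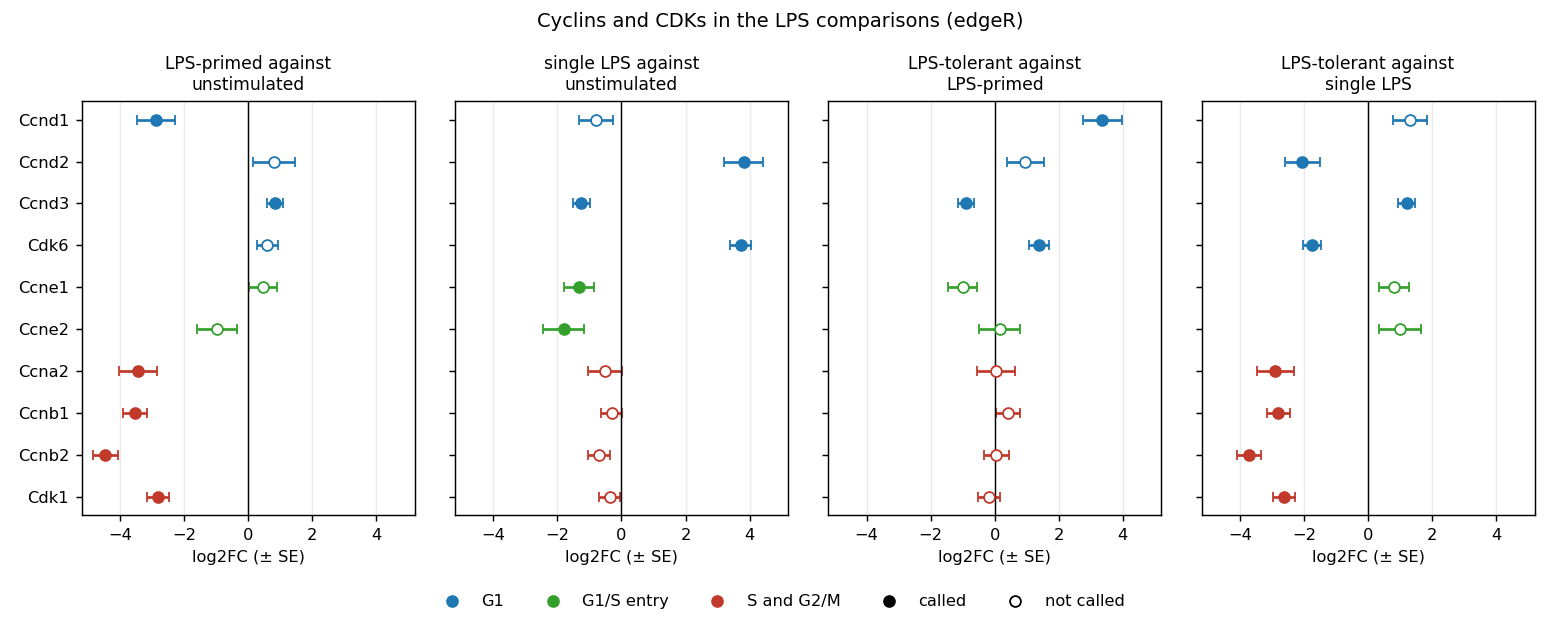
Log2FC of the 10 members in the 4 LPS comparisons, with bars of 1 SE, from edgeR fits of all 18 samples. Filled points were called at an adjusted p under 0.05. The S and G2/M members are called lower in the LPS-primed against unstimulated and in the LPS-tolerant against single LPS panels alone, and the G1 members lie on both sides of 0 in each panel.

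Ccne1 and Ccne2, the E cyclins, were lower after LPS stimulation and were not called with priming or with the second dose. Ccne1 had 13.8, 7.40 and 3.91 CPM in unstimulated and 6.02, 2.60 and 1.48 CPM in LPS-stimulated BMDMs, a log2FC of -1.33 ± 0.46 with an adjusted p of 0.0233 by edgeR. Ccne2 had 11.3, 6.69 and 2.54 CPM and then 2.95, 1.11 and 1.91 CPM, a log2FC of -1.81 ± 0.65 with an adjusted p of 0.0290. The sample ranges overlapped for both genes, though each LPS-stimulated sample was below the unstimulated sample with the same replicate number. The call was lost without unstimulated replicate 1 or LPS-stimulated replicate 2 or 3 for either gene, and without unstimulated replicate 2 for Ccne2, at -0.76 to -1.17 for Ccne1 and -1.23 to -1.80 for Ccne2. For Ccne1 it was lost as well in the edgeR fit of the compared groups (log2FC -1.27, adjusted p of 0.0968), and without LPS-stimulated replicate 1 its log2FC was -2.0. Ccne1 was highest in primed BMDMs, with 11.3, 13.3 and 10.2 CPM, all above the tolerant samples, where it had 5.31, 7.24 and 4.76 CPM, with a log2FC of -1.0 ± 0.45 and an adjusted p of 0.205. The gene 1600014C10Rik, which shares exonic bases with Ccne1 on the other strand, had a log2FC of 1.34 with priming and -1.78 with the second dose, and its part in the values of Ccne1 was not tested. Ints8 shares exonic bases with Ccne2 in the same way. It held 193 to 1125 counts per sample, with a log2FC of 1.03 after LPS stimulation, and its part in the values of Ccne2 was not tested.

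Counted over the 10 members, 2 were higher and 3 lower after LPS stimulation, against 24.3% of all tested genes called higher and 26.9% lower. Tolerant against LPS-stimulated BMDMs had 1 member higher, which was Ccnd3 with a log2FC of 1.21 ± 0.26, and 6 lower, against 16.2% and 18.3% of all genes. Tolerant against primed BMDMs, the comparison of the second dose, had 2 higher and 1 lower, against 3.60% and 2.71% of all genes.

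The same dose of 10 ng/ml could be compared between naive and primed BMDMs, from 4 groups that share no sample between the doses. The difference of the log2FC, second dose minus first, was 4.17 ± 0.80 for Ccnd1 (adjusted p of 9.3e-04 by edgeR), -2.34 ± 0.43 for Cdk6 (7.2e-04) and -2.86 ± 0.84 for Ccnd2 (0.0204). These 3 were called, 1 higher and 2 lower, where 10.5% and 13.3% of all genes were called. Ccnd1 had opposite signs in the 2 responses, while Ccnd2 and Cdk6 had the same sign and a smaller response to the second dose. The difference was 5.07 for Ccnd1 without primed replicate 2 and -4.68 for Ccnd2 without unstimulated replicate 1. The call of Ccnd2 was lost without unstimulated replicate 2 (-2.44) or without primed replicate 1 (-2.65) or 2 (-2.58). For Ccnd3 the difference was 0.36 ± 0.36, and for the S and G2/M members it ranged from 0.20 to 0.75, none of them called.

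**Figure D3:**
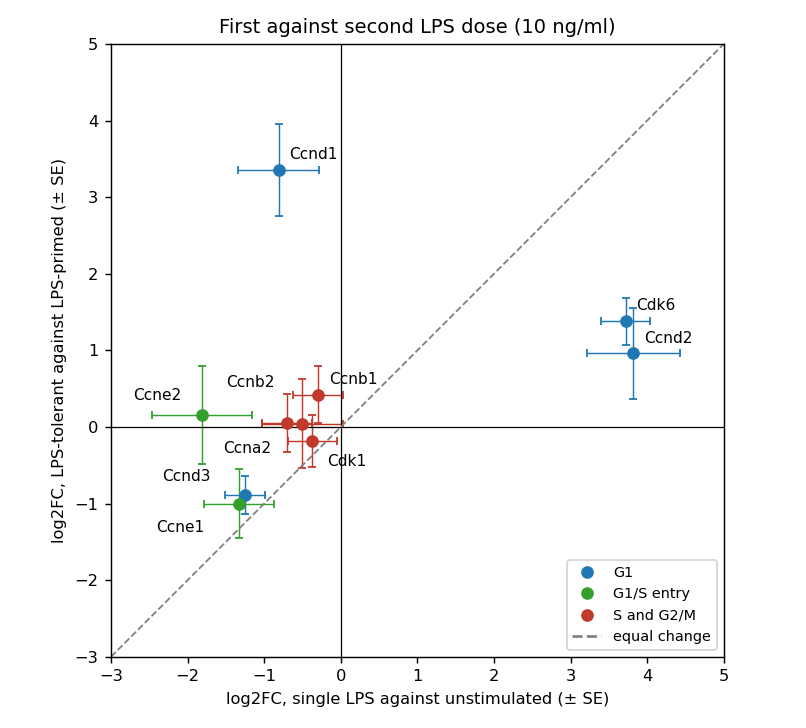
Log2FC of each member after LPS (10 ng/ml) in naive BMDMs (x axis) and in LPS-primed BMDMs (y axis), with bars of 1 SE. On the dashed line both changes are equal. Ccnd1 lies above the line at -0.81 and 3.36, and Ccnd2 and Cdk6 lie below it at 3.82 and 0.96 and at 3.72 and 1.38.

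G1 members were set against S and G2/M members in each sample as the difference of their mean log2(CPM + 1). These means were not divided by exon length, which was 2221 bases for Ccnb2 and 14421 for Cdk6. The sign of the difference thus depends on exon length too, and only its change between groups is read here. This difference was -3.56 ± 0.32 (SD, n = 3) in unstimulated and -1.98 ± 0.74 in LPS-stimulated BMDMs, -0.31 ± 0.47 in primed and 0.74 ± 0.71 in tolerant BMDMs. With carboplatin it was 0.62 ± 0.48 in primed and 1.67 ± 0.37 in tolerant BMDMs. The ranges of the unstimulated group (-3.91 to -3.29) and the LPS-stimulated group (-2.74 to -1.26) overlapped with no other group. The S and G2/M mean spanned 1.63 to 6.87 over the 18 samples, and the G1 mean spanned 2.37 to 4.29. Primed BMDMs differed from unstimulated BMDMs mostly on the S and G2/M side, where the mean was 2.70 to 3.56 against 6.12 to 6.87.

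**Figure D4:**
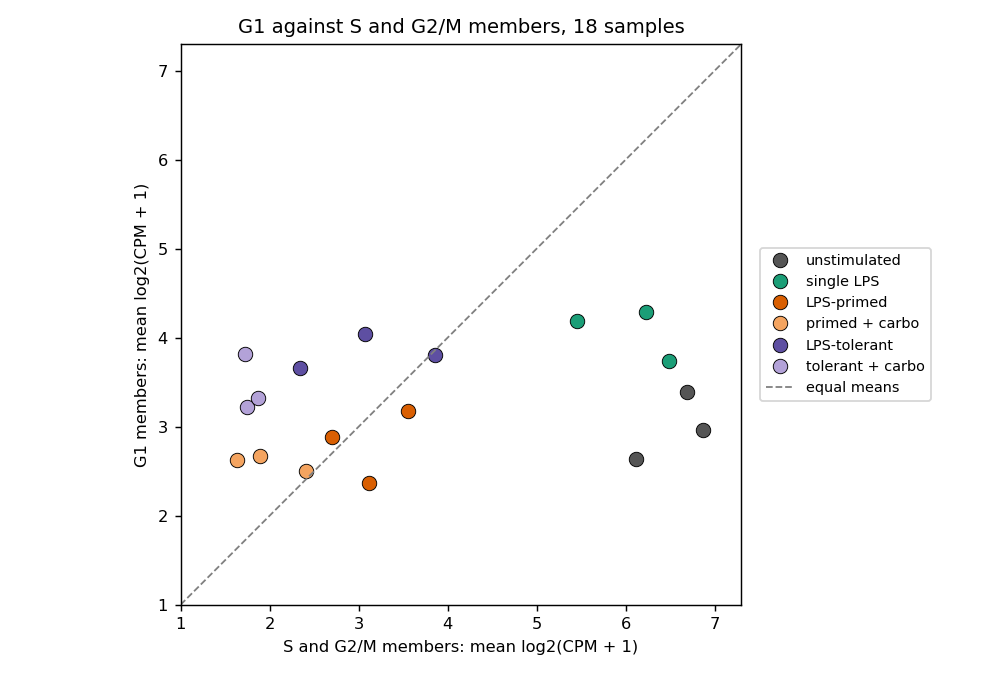
Mean log2(CPM + 1) of the 4 S and G2/M members (x axis) and of the 4 G1 members (y axis) in each of the 18 samples, coloured by group, with a dashed line of equal means. The 6 unstimulated and LPS-stimulated (single LPS) samples lie at the right, below the line. The samples with carboplatin lie above it, as do tolerant replicates 1 and 3 and primed replicate 1 without the drug. Means were not divided by exon length, so the side of the line depends on exon length too.

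Carboplatin was tested in primed and in tolerant BMDMs against the same state without the drug. The mean of both effects was called lower for each of the 4 S and G2/M members. Within a single state edgeR without the replicate block called Ccnb1 in tolerant BMDMs and no other member. With the block it called 2 of the S and G2/M members in primed and 3 in tolerant BMDMs. Ccna2 had a mean log2FC of -1.99 ± 0.47 (adjusted p of 0.0361 by edgeR), Ccnb1 of -1.79 ± 0.29 (0.00233), Ccnb2 of -1.65 ± 0.31 (0.00718) and Cdk1 of -1.02 ± 0.25 (0.0484). None of the 6 G1 members and E cyclins was called by edgeR or DESeq2, with 1 at an unadjusted p under 0.05, and their mean effects ranged from -1.02 for Ccne2 to -0.05 for Ccnd2. The calls of Ccnb1 and Ccnb2 were kept in all 12 fits that left out 1 sample. Ccna2 kept its call in 4 of 12 and Cdk1 in 3 of 12. By edgeR the call of Ccna2 was also lost in the fit of the compared groups (adjusted p of 0.0725), and that of Cdk1 with no TMM factor (0.0641).

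These 4 members were the called ones, 4 lower and 0 higher, where 1.88% of all tested genes were called lower and 0.115% higher. The median log2FC was -1.72 over the S and G2/M members, -0.33 over the G1 members and 0.01 over all genes. This contrast uses 12 samples, and the effects in each state alone rest on 6.

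In primed BMDMs, Ccnb1 had 4.89, 7.10 and 8.06 CPM without and 1.16, 3.03 and 2.38 CPM with carboplatin, from 8, 30 and 22 counts. No member was called there by edgeR, where 0.00% of all genes were called higher and 0.372% lower. The S and G2/M members were the 4 with an unadjusted p under 0.05, and DESeq2 called 1 of them, Ccnb1. With the replicate block edgeR called Ccnb1 (log2FC -1.62, adjusted p of 0.0113) and Ccnb2 (-1.48, 0.0239). For each of the 4 genes the primed samples with and without the drug did not overlap.

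In tolerant BMDMs, Ccnb1 had 5.44, 12.8 and 8.41 CPM without and 2.11, 2.32 and 2.17 CPM with carboplatin. It was the 1 member called, with a log2FC of -2.02 ± 0.41 and an adjusted p of 0.0365 by edgeR, where 0.0177% of all genes were called higher and 0.407% lower. With the replicate block Ccnb2 (adjusted p of 0.00726) and Cdk1 (0.0259) were called too, and 1 of the 6 fits that left out 1 sample kept the call of Ccnb1. That call was also lost by edgeR with no TMM factor (adjusted p of 0.0566) and in the fit of the compared groups (0.130). Tolerant replicate 2, the highest sample without the drug, bore on the size, and without it the log2FC of Ccnb1 was -1.65. Ccna2 had 1.90, 17.2 and 7.52 CPM without and 2.25, 1.22 and 2.27 CPM with carboplatin. Its samples overlapped and replicate 1 was higher with the drug, with a log2FC of -2.23 ± 0.68 that was not called by edgeR (adjusted p of 0.253, and 0.0679 with the block) or by DESeq2 (0.0937). Ccnb1 has a processed pseudogene, Ccnb1-ps, that held 1 to 28 counts per sample, so that some of its low counts could be shared. Exosc9, which shares exonic bases with Ccna2 on the other strand, held 313 to 1007 counts per sample. Its part in the values of Ccna2 was not tested.

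**Figure D5:**
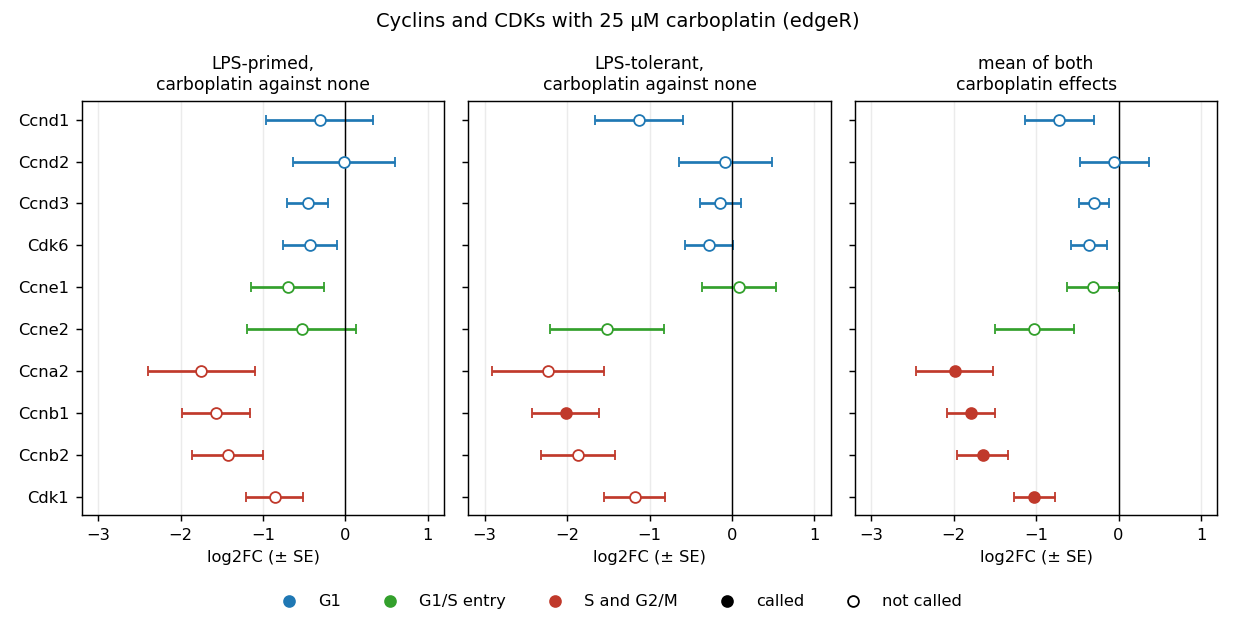
Log2FC of the 10 members with 25 µM carboplatin in LPS-primed BMDMs, in LPS-tolerant BMDMs and as the mean of both, with bars of 1 SE, from edgeR fits of all 18 samples. Filled points were called at an adjusted p under 0.05. The 4 S and G2/M members lie at the left of each panel, and they are the called members of the mean effect.

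The carboplatin effects in tolerant and primed BMDMs could not be told apart for any member. Their differences ranged from -0.99 ± 0.95 for Ccne2 to 0.78 ± 0.63 for Ccne1, and edgeR and DESeq2 called 0 members, with 0 at an unadjusted p under 0.05. Over all genes, 0.00% were called higher and 0.00% lower, with 131 at an unadjusted p under 0.05 by edgeR and 0 called by DESeq2. For Ccnb1 the 95% interval of the difference was -1.74 to 0.83. Ccnd1 in tolerant BMDMs had 17.5, 45.0 and 34.6 CPM without and 8.45, 14.3 and 21.6 CPM with carboplatin, which overlapped, with a log2FC of -1.13 ± 0.53 and an adjusted p of 0.738.

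Other genes of the pathway placed these values. Without the block, edgeR called 3.60% of all genes higher and 2.71% lower with the second dose. For the mean carboplatin effect these shares were 0.115% and 1.88%. With the block it called 4367 of the 11305 genes for priming and 7148 for LPS stimulation. It called 2034 for the second dose and 705 for the mean carboplatin effect. Of 13 tested cyclins outside the members, 1 was called lower with priming and 0 higher, against 13.1% and 12.1% of all genes. It was Ccnf, a cyclin of G2 that is part of a ubiquitin ligase, with a log2FC of -2.40 ± 0.31. Ccnc, the cyclin of the Mediator complex, had 0.61 ± 0.22, with an adjusted p by edgeR of 0.0505 without and 0.00541 with the block, and the block called 3 of the 13. After LPS stimulation 3 of the 13 were higher and 4 lower, near the 24.3% and 26.9% of all genes called without the block. The block called 10 of the 13, where it called 7148 of all 11305 genes. Among the called were Ccnl1, a cyclin linked to splicing, at 0.83 ± 0.13, and Ccng1, a target of p53, at -0.80 ± 0.24. Ccng1 had a mean carboplatin effect of 0.62 ± 0.16, with an adjusted p of 0.0665 that became 0.00628 with the block. With the second dose 1 of the 13 was called, and 4 with the block. It was Ccng2, named after its values were seen, at -1.36. Ccna1 and Ccno had too few counts for the test.

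Of 15 other CDKs, 1 was higher and 1 lower with priming, against 12.1% and 13.1% of all genes. The block called 3 of the 15, where it called 4367 of all 11305 genes. The pair called without it was Cdk20 at 0.84 ± 0.28 and Cdk19, a kinase of the Mediator complex, at -1.04 ± 0.33. Cdk4, the other partner of the D cyclins, did not pass the test in any comparison, with group means of 75.4 to 100 CPM, apart from tolerant against LPS-stimulated BMDMs with the block. There its log2FC was 0.37 ± 0.22, and its adjusted p by edgeR was 0.224 without and 0.0107 with the block. Cdk2, the partner of the E cyclins, was lower after LPS stimulation at -0.78 ± 0.20. After the second dose edgeR called 0 of the 15, with 3 at an unadjusted p under 0.05, 4 with the block and 0 by DESeq2. Carboplatin had a mean effect of -1.36 ± 0.21 on Cdk14, a CDK of Wnt signalling, and Cdk16 had 0.17 ± 0.11. Cdk14 was the 1 other CDK called, where 1.88% of all genes were called lower and 0.115% higher.

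The inhibitors of CDKs were described as 7 genes. With priming 3 of 7 were lower, against 13.1% of all genes. They were Cdkn1c (p57) at -4.97 ± 0.91, from 42 to 99 counts down to at most 4, Cdkn2c (p18) at -2.74 ± 0.32 and Cdkn2a at -2.53, the last named after its values were seen. Cdkn1a (p21), a target of p53, had 67.5 ± 28.7 CPM (SD, n = 3) in unstimulated and 244 ± 41.4 CPM in LPS-stimulated BMDMs and rose by 1.85 ± 0.37 on the log2 scale. It was not called with priming (0.54 ± 0.36) or for the mean carboplatin effect (0.79 ± 0.25, adjusted p of 0.153, and 0.00189 with the block). Cdkn1b (p27) went from 41.9 ± 15.1 CPM in primed to 17.2 ± 3.91 CPM in tolerant BMDMs, a log2FC of -1.29 ± 0.29. It was the 1 inhibitor called with the second dose, where 2.71% of all genes were called lower and 3.60% higher. The block called 2 inhibitors there, and 2034 of all 11305 genes. Between tolerant and LPS-stimulated BMDMs, 6 of the 7 were lower, where 18.3% of all genes were. Their median log2FC over the 7 was -1.62, against 0.00 over all genes.

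Regulators of cyclin-CDK activity and turnover were lower with priming in 10 of 13 and higher in 0, against 13.1% and 12.1% of all genes. Their median log2FC was -2.23. Cdc20 and Ube2c, which act with the anaphase-promoting complex to have the B cyclins degraded, were lower, with a log2FC of -4.30 ± 0.33 and -4.18 ± 0.39. Ube2c was also lower with carboplatin in tolerant BMDMs, at -3.56 ± 0.49 with an adjusted p of 0.00166 by edgeR. It had 56 to 101 counts there without and 1 to 9 with the drug. The size of this change thus rests on very low counts. Cdc20 had a mean carboplatin effect of -1.17 ± 0.25. With the second dose edgeR called 0 of the 13, with 2 at an unadjusted p under 0.05, and DESeq2 called 0. The 3 proliferation markers were all lower with priming, Mki67 (Ki-67) at -2.54 ± 0.36 and Top2a (topoisomerase II alpha) at -2.82 ± 0.44, and Pcna, the sliding clamp of replication, at -0.93. Pcna was the marker called with the second dose, higher at 0.98, and it was named after its values were seen. Top2a was the 1 of the 3 called for the mean carboplatin effect, at -1.50 ± 0.30, where 1.88% of all genes were called lower. With the block 2 of the 3 were called, and 705 of all 11305 genes.

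Among genes of growth input, Myc, a transcription factor of growth, was called with both doses. It had a mean of 5.74 CPM in unstimulated, 165 CPM in LPS-stimulated, 4.60 CPM in primed and 61.4 CPM in tolerant BMDMs, with log2FC values of 4.84 ± 0.40 and 3.74 ± 0.40. Csf1r, the receptor of macrophage colony-stimulating factor, lay between 2092 and 2630 CPM in every group mean and was not called in any comparison without the block. Between tolerant and LPS-stimulated BMDMs its log2FC was 0.27 ± 0.14, with an adjusted p by edgeR of 0.166 without and 0.0490 with the block. Maf, a factor known to hold macrophages out of the cycle, was lower after LPS stimulation at -2.49 ± 0.46.

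The order of levels over the 6 groups differed between members. Ccnb2 had its highest mean in unstimulated BMDMs, 128 CPM, and its lowest in tolerant BMDMs with carboplatin, 1.65 CPM, a ratio of 77.3. Among neighbours in its order, the ranges of unstimulated and LPS-stimulated, LPS-stimulated and tolerant, and primed and primed with carboplatin did not overlap. Ccnd1 was highest in tolerant BMDMs (32.4 ± 13.9 CPM) and lowest in primed BMDMs with carboplatin (2.52 ± 0.898 CPM), and in its order only LPS-stimulated and primed BMDMs were neighbours without overlap. Ccnd2 and Cdk6 were both highest in LPS-stimulated BMDMs, at 14.6 ± 4.91 and 30.4 ± 8.68 CPM, apart from the tolerant group that followed. For Ccne1 and Ccne2 every pair of neighbours overlapped.

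Over the 18 samples, which share libraries and depth across genes, the S and G2/M members correlated with one another at 0.97 to 0.99 (Pearson's r of log2(CPM + 1)). Group means were left in, so that this and the values that follow also hold the differences between groups. Ccnd2 correlated with Cdk6 at 0.88 and with Ccnd3 at -0.65, and Ccnd1 with Ccnd2 at 0.26. The genes most like Ccnb2 were Kif2c (0.990), Stmn1 (0.989) and Ccnb1 (0.987). Those most like Ccne2 were Hells, Mcm3 and Rrm2, at 0.816, 0.808 and 0.800. For Ccnd1 they were Il10rb, Ywhah and Zranb3 at 0.920 to 0.931, and for Ccnd2 Oaf, Prmt1 and Pcbp1 at 0.954 to 0.958. For Cdk6 they were G3bp1, Pdcd11 and Plec at 0.962 to 0.967, for Ccnd3 they included Vrk3 and Lcmt1 at 0.926 and 0.922, and for Ccne1 Faf1, H2-M3 and Tmx2 at 0.848 to 0.879. Among these 7 members, no gene was in the nearest 3 of more than 1, and Ccna2, Ccnb1 and Cdk1 were not run.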

How the data were processed

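RNA-Seq read counts per gene were analysed in 18 samples of mouse BMDMs, 3 replicates in each of 6 groups taken from the sample labels. Per the paper's methods, libraries were stranded mRNA libraries read as pairs of 150 bases, and the authors aligned the reads to GRCm39 with HISAT2, counted them with HTSeq-count and compared groups with DESeq2. The deposited files hold these raw counts. Versions, annotation and strand option were not given in the sources used here. Between 41.5 and 46.9% of the records of a sample lay on summary lines that name no gene and were left out.

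Counts were fitted with edgeR 4.0.16 in R 4.3.3 (quasi-likelihood F test, TMM, filterByExpr with a minimum count of 10 and a minimum total of 15, a mean for each of the 6 groups, 12 residual degrees of freedom). P values were two-sided and adjusted by Benjamini and Hochberg over 11305 genes in each of 9 comparisons. The SE was taken as the size of the log2FC over the root of F, and 95% intervals used 12 degrees of freedom. CPM used the TMM-scaled library size, and log2 levels a pseudocount of 1 CPM. TPM used the summed exon length of GENCODE vM39, in which 89.7% of the 22852 symbols matched 1 gene. The fit was tested on simulated data. Sequences were read from the GRCm39 genome.

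Same-numbered samples deviated together from their group means, with a correlation above 0.1 in every pair of each of the 6 comparisons of 2 groups (means of 0.32 to 0.61), so the replicate numbers were taken to pair the samples. The labels and methods do not say what a number shares. The reported fit has no block, since the study's methods name none, so that its calls do not use this pairing. The alternatives were RLE factors, no scaling factor, no filter, DESeq2 1.42.0, the compared groups alone, the block, the study's limits (log2FC beyond 2 with an adjusted p under 0.05, or 0.25 for carboplatin) and leaving out each sample. Named genes were the 10 members, 8 further genes by name, and from each list the 2 with the smallest p for priming and the 2 for the mean carboplatin effect. The members, lists and tests were chosen with earlier results of these data known. Figures were drawn with matplotlib 3.10.9. A DESeq2 adjusted p of NA stayed NA. Some genes of the lists are not reported here.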

Additional observations from a re-analysis of the deposited data

Results flagged for a closer look

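Of the 10 members, 3 responded differently to LPS (10 ng/ml) in primed BMDMs than in naive BMDMs, by the contrast of the 4 groups in edgeR. The difference of the log2FC, the second response minus the first, was 4.17 for Ccnd1, -2.86 for Ccnd2 and -2.34 for Cdk6. For Ccnd1 the change was -0.81 in naive and 3.36 in primed BMDMs, for Ccnd2 3.82 and 0.96, and for Cdk6 3.72 and 1.38. Fresh medium came with the second dose, and whether it came with the first was not given in the sources used here, so that medium and dose cannot be told apart.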

How the results depend on the processing

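Of 540 log2FC values of the members under an alternative other than leaving out a sample, 518 kept their direction and their side of the threshold, as did 635 of 720 with 1 sample left out. Where a direction or call changed, the cause was not tested. The number of members called moved with the study's limits from 5 to 2 for LPS stimulation, from 3 to 1 for the second dose and from 4 to 0 for the mean carboplatin effect. In primed BMDMs with carboplatin it moved from 0 to 1 (DESeq2) and 2 (replicate block). In tolerant BMDMs with carboplatin it moved from 1 to 0 (library size alone, and the groups compared alone), 2 (no filter, and DESeq2) and 3 (replicate block). With 1 sample left out, it was 3 to 5 for LPS stimulation, 1 to 2 for the second dose, 0 to 2 for carboplatin in tolerant BMDMs and 2 to 4 for its mean effect. The replicate block added 6 calls of members, given with their values above, and changed no other call of the 10 members.

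Changes of sign were seen in small, uncalled values. For the second dose, library size alone gave -0.05 for Ccna2 and -0.04 for Ccnb2, and the replicate block -0.01 for Ccnb2. For carboplatin in primed BMDMs, Ccnd2 had 0.01 with library size alone and 0.00 with the block. With 1 sample left out, the second dose gave -0.23 to 0.62 for Ccne2, -0.87 to 0.82 for Ccna2, -0.56 to 0.35 for Ccnb2 and -0.52 to 0.03 for Cdk1. Carboplatin in primed BMDMs gave -0.75 to 0.60 for Ccnd1 and -0.42 to 0.26 for Ccnd2, and in tolerant BMDMs -0.18 to 0.03 for Ccnd2 and -0.28 to 0.32 for Ccne1. Its mean effect on Ccnd2 was -0.25 to 0.09. The difference of its effects was -0.34 to 0.34 for Ccnd2, -0.08 to 0.40 for Cdk6, -1.26 to 0.43 for Ccna2, -0.74 to 0.18 for Ccnb2 and -0.63 to 0.02 for Cdk1. The second minus the first LPS response was -0.22 to 1.00 for Ccne1, -0.37 to 1.32 for Ccna2 and -0.14 to 0.45 for Cdk1.

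Over all genes, calls moved by over 1.5 times with the block for priming (2847 to 4367), the second dose (713 to 2034), the difference of the doses (2691 to 4091) and carboplatin in primed (42 to 200) and tolerant BMDMs (48 to 200) and on average (225 to 705). DESeq2 called 1116, 121, 153 and 422 genes for the second dose and these 3 carboplatin comparisons, and fits of the groups compared alone called 454, 19 and 6 for the first 3 of them. The study's limits called 845 genes for priming, 1352 for LPS stimulation, 909 for tolerant against LPS-stimulated BMDMs, 77 for the second dose, 905 for the difference of the doses and 63 for the mean carboplatin effect. Low counts limit, among others, Ccnd2 in unstimulated BMDMs and Ccna2, Ccnb1, Ccnb2 and Ccne2 with carboplatin. In primed samples with the drug the fewest counts were 9 for Ccna2 and 8 for Ccnb1 and Ccnb2. Ccne2 fell to 4 counts in tolerant samples with it.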
